A study of Mus musculus with 16 samples.

Results

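A list of 10 genes of stem cells and early progenitors was followed through a step of mouse monocyte development, from macrophage and dendritic cell progenitors (MDPs) to common monocyte progenitors (cMoPs), in control mice and in mice with reduced Dnmt1. The members, Angpt1, Sox4, Cd34, Adgrg1, Erg, Hlf, Mecom, Mycn, Procr and Lmo2, form a list of known genes matched by symbol to the array annotation. They were chosen with earlier results of these data known. All 10 were measured, among 22180 genes with a level. RNA came from bone marrow cells of mice aged 8 to 12 weeks, with 4 arrays in each of 4 groups. Control animals were Dnmt1+/+ and the others were Dnmt1c/chip, a genotype that joins a null allele (c) to a hypomorphic one (chip), which lowers but does not remove the maintenance DNA methyltransferase. All cells of both genotypes were sorted by flow cytometry as Lin-, cKit high, CD115+ and CD11b-, and Ly-6C separated MDPs (Ly-6C-) from cMoPs (Ly-6C+). The groups were therefore control MDPs, c/chip MDPs, control cMoPs and c/chip cMoPs. Whether every array of a group stems from a different mouse is not recorded in the labels. The p-values therefore speak only of the variation between these samples, part of which may be technical. Sex chromosome transcripts, given below, marked arrays of both sexes in the control groups and in c/chip cMoPs. The arrays of each of these groups thus did not all stem from the same mouse.

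Blood stem cells keep a set of transcription factors and surface proteins that sustain self-renewal and multilineage potential, and most of these genes are turned down as cells commit to one lineage. Erg, Hlf, Mecom and Lmo2 encode nuclear regulators of stem cell maintenance, Sox4 and Mycn encode transcription factors of growing immature cells, and Cd34, Adgrg1, Procr and Angpt1 encode surface or secreted proteins used to mark or signal from stem and progenitor cells. Dnmt1 copies CpG methylation to the new DNA strand at each division, and stem and progenitor cells of the blood are known to depend on it.

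Levels are log2 values after RMA, the standard background correction, quantile normalization and probe summary of Affymetrix arrays, and the array medians lay between 3.43 and 3.62. Dnmt1 was 2.15-fold lower in c/chip MDPs (9.86 ± 0.07 in control, 8.75 ± 0.27 in c/chip, SD, n = 4, adjusted p = 3.48e-04) and 1.87-fold lower in c/chip cMoPs (adjusted p = 0.00814). Of the sort markers, Ly6c2, a gene of Ly-6C, had a log2 difference of 1.84 between control cMoPs and control MDPs (adjusted p = 3.53e-07), and c/chip MDPs had 1.06 more of it than control MDPs (adjusted p = 4.72e-04). Kit, the stem cell factor receptor gene, and Itgam, the gene of CD11b, passed in none of the 5 comparisons. Csf1r, the gene of CD115, was higher in c/chip cMoPs than in c/chip MDPs (log2 0.76, SE 0.157, adjusted p = 0.0107) and passed in no other comparison. That call was lost in a fit of the c/chip groups alone. The c/chip MDP replicates 1, 3 and 4 stood apart, because they carried Xist (9.51 to 10.65), the transcript of the inactive X chromosome, together with Y-linked transcripts (mean level 5.27 to 6.42), whereas no other array had both high. For the members, called differences that rest on c/chip MDPs are therefore also given without these 3 arrays. The lone array left is then assumed to vary like the other groups. The Csf1r call in c/chip mice was also lost in that fit and with Xist and Y-linked levels as covariates. Xist was high and Y-linked transcripts low on replicates 1 and 2 of both control groups and on c/chip cMoP replicate 1. The reverse held on the other control and c/chip cMoP arrays and on c/chip MDP replicate 2. The mix of sexes thus differed between the genotypes.

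The stretches before the start sites of 4 members are shown because CpG dinucleotides are the sites that Dnmt1 keeps methylated: Adgrg1 had the largest control difference between the cell types, Sox4 and Hlf passed between genotypes in opposite directions, and Cd34, whose levels overlapped between genotypes, is widely used to isolate progenitors, though not in this sort. Sequences are from RefSeq on build GRCm38.p6, 250 bases ending before the annotated start, written 5′ to 3′ on the gene's strand with each CG in capitals. RefSeq promoters were found for 8 of the 10 genes. Methylation was not measured on these arrays.
Adgrg1 (chr8:94976859-94977108, plus strand, 1 of 2 listed starts): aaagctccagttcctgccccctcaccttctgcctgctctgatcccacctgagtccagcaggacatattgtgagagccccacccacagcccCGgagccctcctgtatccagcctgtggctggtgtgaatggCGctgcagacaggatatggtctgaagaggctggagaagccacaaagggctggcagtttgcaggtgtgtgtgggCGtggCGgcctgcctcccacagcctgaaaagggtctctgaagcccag
Sox4 (chr13:28953700-28953949, minus strand): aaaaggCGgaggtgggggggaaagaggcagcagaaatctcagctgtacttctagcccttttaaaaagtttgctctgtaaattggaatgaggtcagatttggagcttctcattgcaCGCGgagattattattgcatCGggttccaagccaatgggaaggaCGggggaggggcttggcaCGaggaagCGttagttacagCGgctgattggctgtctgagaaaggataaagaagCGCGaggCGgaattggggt
Cd34 (chr1:194938571-194938820, plus strand): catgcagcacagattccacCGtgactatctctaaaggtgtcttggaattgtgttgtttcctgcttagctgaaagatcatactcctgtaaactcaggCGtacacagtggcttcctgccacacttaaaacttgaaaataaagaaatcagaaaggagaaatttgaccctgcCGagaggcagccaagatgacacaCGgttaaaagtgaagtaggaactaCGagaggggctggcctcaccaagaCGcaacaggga
Hlf (chr11:90390918-90391167, minus strand): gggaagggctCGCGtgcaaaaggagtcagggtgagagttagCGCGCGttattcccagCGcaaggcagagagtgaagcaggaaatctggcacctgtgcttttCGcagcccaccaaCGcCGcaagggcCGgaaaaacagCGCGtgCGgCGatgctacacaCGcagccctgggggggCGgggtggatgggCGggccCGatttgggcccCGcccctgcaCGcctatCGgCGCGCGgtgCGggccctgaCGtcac

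The Hlf stretch held 26 CG dinucleotides, more than 90.4% of the 32851 mouse promoter stretches of the same length. Sox4 had 11, Cd34 had 6 and this Adgrg1 start had 4, against a median of 6 over all stretches and 92.1% with at least 1. The counts describe the letters in these windows and say nothing of their methylation.

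Of the 10 genes, 5 fell from MDPs to cMoPs in control mice and 7 fell in c/chip mice, and none rose in either genotype. Angpt1, Adgrg1, Sox4, Erg and Cd34 fell in both. Hlf and Mecom passed in c/chip mice and not in control mice. Over all 22180 genes, 1.71% were lower and 2.84% higher in control cMoPs (limma adjusted p under 0.05), and 1.49% were lower and 1.8% higher in c/chip cMoPs, against 5 and 7 of the 10 members that fell. All 10 differences were negative in both genotypes. Their median was −0.83 in control and −1.04 in c/chip mice, on the log2 scale, beside medians of 0.00 and −0.04 over all genes. Arrays of the cell types did not overlap for 6 of the 10 in control and 8 of the 10 in c/chip mice. Over all genes this held for 10.8% and 10.1%. The members were chosen with earlier results of these data known, so these counts and signs describe the list and are not an independent test. With Xist and Y-linked levels as covariates, 5 of the 10 fell in control and 5 in c/chip mice, beside 371 and 151 of the 22180 genes. Without the 3 arrays that stood apart, only replicate 2 was left in c/chip MDPs, on which all 10 members lay below their group mean. The c/chip differences of that fit are given with single genes below. In such bulk samples fewer cells of a type and less RNA per cell cannot be told apart.

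Markers of other lineages also moved between MDPs and cMoPs. Erythroid and megakaryocyte markers were lower in cMoPs for 3 of 8 in control mice and for 8 of 8 in c/chip mice, 5 of 8 without the 3 arrays, and their summed level was 34.95 to 41.64 in control MDPs and 27.37 to 29.61 in control cMoPs. In c/chip mice it was 47.12 to 58.17 in MDPs and 26.78 to 28.37 in cMoPs. Lymphoid markers were lower for 3 of 7 in control mice, with Dntt, the terminal transferase gene, at −6.03 (SE 0.409), and for 0 of 7 in c/chip mice. Their sums were 29.15 to 33.84 in control MDPs, 19.02 to 20.02 in control cMoPs, 20.62 to 25.46 in c/chip MDPs and 19.6 to 21.4 in c/chip cMoPs. Granulocyte markers were higher in cMoPs for 6 of 10 in control mice, and 2 were higher and 1 lower in c/chip mice. Monocyte markers were higher for 4 of 7 in control and 3 of 7 in c/chip mice, and mast cell and basophil markers were split, with 1 lower and 1 higher of 6 in control and 2 lower in c/chip mice. Of 7 dendritic markers 1, Siglech, was lower in control mice and 0 in c/chip mice. With Xist and Y-linked levels as covariates, fewer marker calls were left in c/chip mice. Lower in cMoPs were 4 of 8 erythroid and megakaryocyte markers, the mast cell marker Cpa3 and the lymphoid marker Cd79a, which the main fit did not call. Higher were Elane of the granulocyte markers and Klf4 and Ly6c2 of the monocyte markers. The part of these markers in the falls of the 10 genes was not tested.

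**Figure D1:**
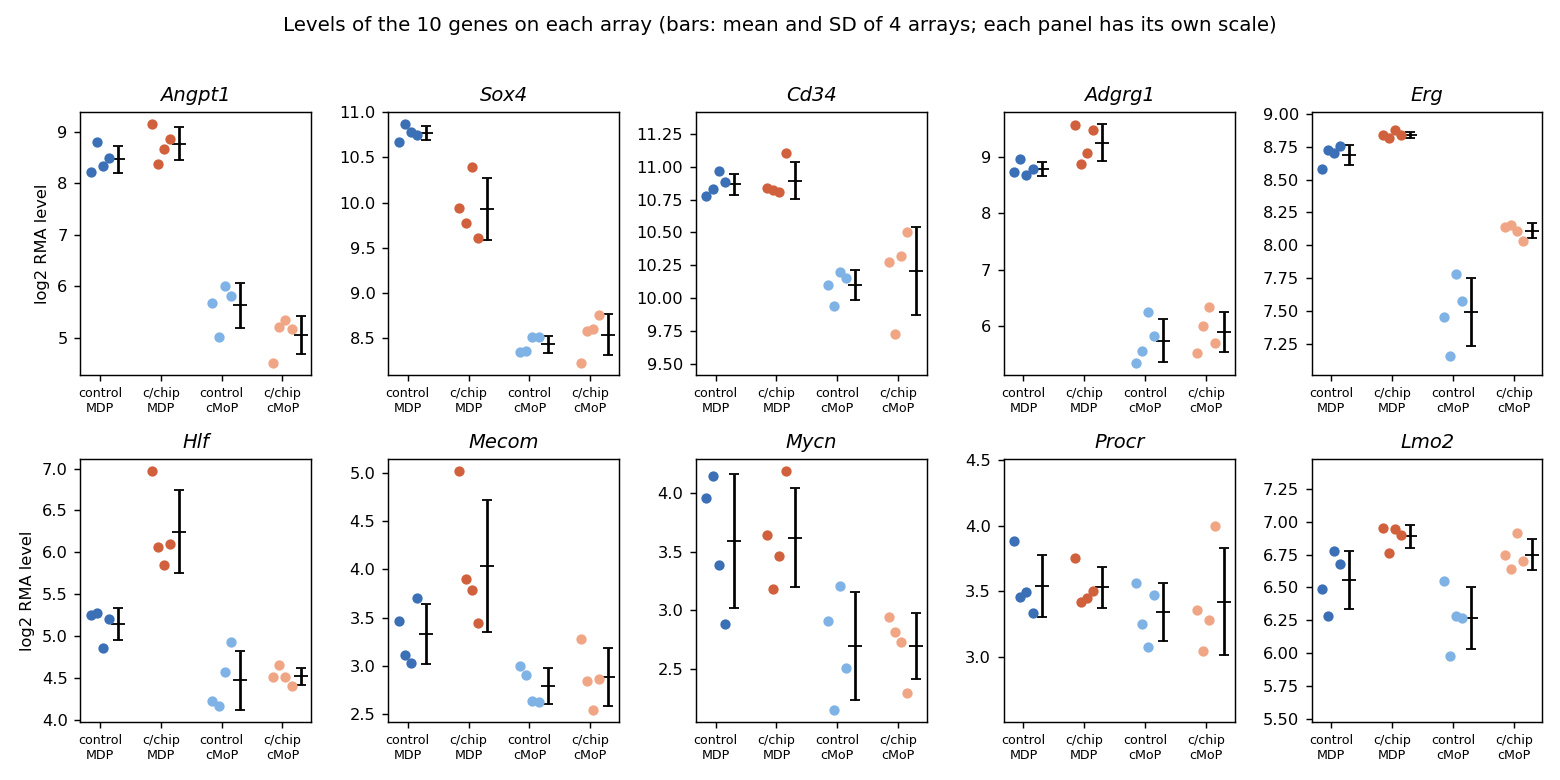
Each point is 1 array, placed by group on the x axis and by its log2 RMA level on the y axis, with 1 panel and 1 scale per gene, and the bars give the mean and SD of 4 arrays. Angpt1, Adgrg1 and Sox4 drop from MDPs to cMoPs without overlap, c/chip MDPs sit below control MDPs for Sox4 and above them for Hlf, and the groups overlap for Procr.

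Adgrg1 encodes an adhesion G protein-coupled receptor (GPR56) that is high on blood stem cells. Its control MDP levels were 8.73, 8.97, 8.67 and 8.79 and its control cMoP levels 5.36, 5.56, 6.25 and 5.83. In c/chip mice the MDP arrays read 9.57, 8.88, 9.07 and 9.48 and the cMoP arrays 5.53, 6.01, 6.34 and 5.71. Every MDP array lay more than 2 units above every cMoP array. The fall was 8.22-fold in control mice (log2 −3.04, SE 0.212, adjusted p = 2.03e-07) and 10.2-fold in c/chip mice (log2 −3.35, SE 0.212, adjusted p = 1.6e-07). Without the 3 c/chip MDP arrays that stood apart, the c/chip difference was −2.98 (adjusted p = 3.75e-04).

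Angpt1 encodes angiopoietin 1, the secreted ligand of the Tie2 receptor that supports vessels and is also made by stem and progenitor cells. Control MDPs had levels of 8.22, 8.81, 8.33 and 8.50 against 5.68, 5.01, 6.01 and 5.81 in control cMoPs. In c/chip mice the MDP levels were 9.15, 8.39, 8.68 and 8.87 and the cMoP levels 4.51, 5.21, 5.34 and 5.17. The cell types were clearly apart in both genotypes, and c/chip cMoPs had 3 of the 4 values below 5.3. The fall was 7.14-fold in control mice (log2 −2.84, SE 0.231, adjusted p = 1.03e-06) and 13.1-fold in c/chip mice (log2 −3.71, SE 0.231, adjusted p = 1.6e-07). A second Angpt1 probe set differed by −1.45 and −1.62 in the same direction, from MDP means of 4.35 and 4.36. Without the 3 arrays the c/chip difference was −3.33 (adjusted p = 3.75e-04).

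Sox4, a SoxC transcription factor gene active in immature blood cells, varied little among control arrays. Control MDPs read 10.68, 10.87, 10.79 and 10.75, and control cMoPs 8.35, 8.36, 8.51 and 8.52. The c/chip MDPs lay between these groups at 9.95, 9.77, 10.40 and 9.61, and c/chip cMoPs were at 8.23, 8.58, 8.60 and 8.75. The lowest c/chip MDP array was still above the highest cMoP array of either genotype. Sox4 fell 5.06-fold in control mice (log2 −2.34, SE 0.16, adjusted p = 1.63e-07) and 2.62-fold in c/chip mice (log2 −1.39, SE 0.16, adjusted p = 7.58e-05). Its other probe set differed by −1.93 and −1.49. Without the 3 arrays the c/chip difference was −1.23 (adjusted p = 0.00925).

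Erg encodes an ETS transcription factor required for stem cell self-renewal. Its levels were 8.58, 8.72, 8.70 and 8.75 in control MDPs and 7.46, 7.15, 7.78 and 7.57 in control cMoPs. In c/chip cells they were 8.84, 8.82, 8.87 and 8.84 in MDPs and 8.14, 8.16, 8.11 and 8.03 in cMoPs. The order over the 4 groups was control cMoPs, c/chip cMoPs, control MDPs and c/chip MDPs, without overlap between any neighbours. Erg fell 2.29-fold in control mice (log2 −1.20, SE 0.128, adjusted p = 1.55e-05) and 1.66-fold in c/chip mice (log2 −0.73, SE 0.128, adjusted p = 0.00327). The c/chip value was −0.71 without the 3 arrays, which did not pass (adjusted p = 0.148).

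Cd34, the sialomucin gene used to sort stem and progenitor cells, had a smaller fall. Control MDP levels were 10.78 to 10.96 and control cMoP levels 9.93 to 10.20, while c/chip MDPs read 10.81 to 11.10 and c/chip cMoPs 9.73 to 10.50. The cell types did not overlap in either genotype. The fall was 1.7-fold in control (log2 −0.77, SE 0.151, adjusted p = 0.00495) and 1.61-fold in c/chip mice (log2 −0.69, SE 0.151, adjusted p = 0.0162). A probe set shared with Gm16897, which was not used, differed by −0.80 in control and −0.14 in c/chip mice. The c/chip call was lost without c/chip MDP replicate 4 (log2 −0.62, adjusted p = 0.0508), without the 3 arrays (adjusted p = 0.301), with Xist and Y-linked levels as covariates (adjusted p = 0.0842) and in a fit of the c/chip groups alone (adjusted p = 0.0881).

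**Figure D2:**
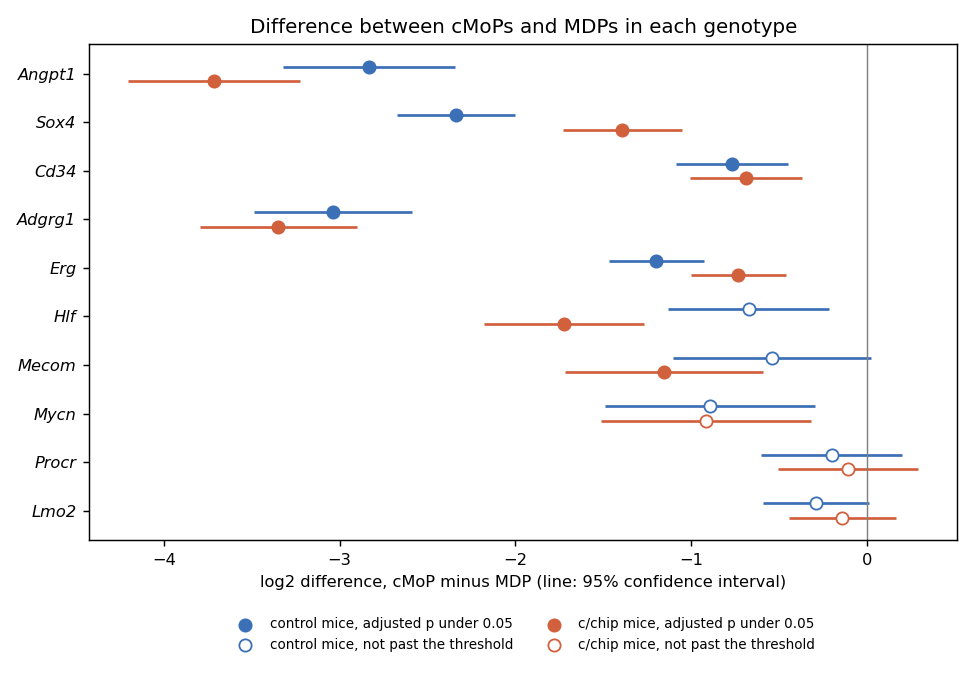
Each point is the log2 difference of cMoPs minus MDPs (x axis) for 1 gene (y axis) in control (blue) or c/chip mice (orange), lines are 95% confidence intervals, and filled points passed an adjusted p of 0.05. All points lie left of 0, Angpt1 and Adgrg1 lie farthest, and Hlf and Mecom are filled in c/chip mice alone.

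Hlf encodes a PAR bZIP transcription factor confined largely to stem cells and the earliest progenitors of the blood. Control MDPs read 5.25, 5.27, 4.86 and 5.202, and control cMoPs 4.22, 4.17, 4.57 and 4.93. The c/chip MDPs were at 6.97, 6.06, 5.85 and 6.10 and c/chip cMoPs at 4.51, 4.65, 4.52 and 4.41. The 2 control groups overlapped, whereas all c/chip MDP arrays lay above every other array. In c/chip mice Hlf fell 3.3-fold (log2 −1.72, SE 0.216, adjusted p = 1.58e-04), and in control mice the difference was −0.67 (SE 0.216, adjusted p = 0.0951). The control difference passed when c/chip MDP replicate 1 was left out (adjusted p = 0.0264). The c/chip fall was −1.54 without the 3 arrays (adjusted p = 0.011).

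Mecom, Mycn and Procr were measured near the array medians. Mecom, the zinc finger regulator Evi1 of stem cells, read 3.03 to 3.70 in control MDPs, 2.63 to 2.999 in control cMoPs, 3.44 to 5.02 in c/chip MDPs and 2.54 to 3.27 in c/chip cMoPs. Neither genotype showed overlap between the cell types. Mecom fell 2.23-fold in c/chip mice (log2 −1.16, SE 0.267, adjusted p = 0.0216), while the control difference was −0.54 (SE 0.267, adjusted p = 0.341). Its other probe set, with lower levels, differed by −0.47 in control and −0.79 in c/chip mice. The c/chip call was lost without c/chip cMoP replicate 2, 3 or 4 (log2 −1.14, −1.04 and −1.15, adjusted p = 0.0578, 0.0857 and 0.0569), without the 3 MDP arrays (−1.02, adjusted p = 0.118), with Xist and Y-linked levels as covariates (adjusted p = 0.15) and in a fit of the c/chip groups alone (adjusted p = 0.0929).

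Mycn, the N-Myc gene that acts with c-Myc in stem cell survival, ranged from 2.89 to 4.14 in control MDPs and from 2.16 to 3.21 in control cMoPs. Its c/chip levels were 3.18 to 4.18 in MDPs and 2.30 to 2.95 in cMoPs. The wide spread within groups went with differences of −0.89 (SE 0.283, adjusted p = 0.0903) in control and −0.92 (SE 0.283, adjusted p = 0.0954) in c/chip mice. The control difference was −1.13 and passed without control MDP replicate 4, the lowest of its group (adjusted p = 0.0289).

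Procr, the endothelial protein C receptor gene, and Lmo2, a LIM-domain bridging protein of the Tal1 and Gata factor complexes, had overlapping cell types in both genotypes. Procr lay between 3.05 and 3.998 on all 16 arrays, with differences of −0.20 (95% interval −0.60 to 0.20) in control and −0.11 (−0.51 to 0.29) in c/chip mice. Lmo2 lay between 5.98 and 6.95, with differences of −0.29 (−0.59 to 0.01) and −0.14 (−0.44 to 0.16). These intervals leave room for falls up to 0.60 and 0.59 on the log2 scale, and a lack of change was not shown.

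Between genotypes in MDPs, Sox4 was lower and Hlf higher in c/chip cells, and the other 8 genes did not pass. The background was 0.685% of all genes lower and 1.26% higher. Sox4 was 1.79-fold lower (log2 −0.84, SE 0.16, adjusted p = 0.013) and Hlf 2.14-fold higher (log2 1.10, SE 0.216, adjusted p = 0.0157), each without overlap between the genotypes' arrays. Erg, which did not pass, also had no overlap. This made 3 of the 10 members, against 7% of all genes. The other differences ran from −0.01 for Procr to 0.71 for Mecom (SE 0.267, adjusted p = 0.209), with Adgrg1 at 0.46 (SE 0.212, adjusted p = 0.336), Lmo2 at 0.34, Angpt1 at 0.31, Erg at 0.15, Cd34 at 0.03 and Mycn at 0.02. The median over the 10 genes was 0.23 beside 0.03 over all genes.

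Both calls came from the fit of all 16 arrays. When only MDP arrays were fitted, neither Sox4 nor Hlf passed (adjusted p = 0.109 for each). Without the 3 arrays that stood apart, Sox4 differed by −0.996 (adjusted p = 0.0451) and Hlf by 0.91 (adjusted p = 0.168), and without control MDP replicate 3 the Hlf difference was 1.00 (adjusted p = 0.0518). With Xist and Y-linked levels as covariates the values were −1.04 (adjusted p = 0.0501) and 0.79 (adjusted p = 0.283). The mean of the Sox4 probe sets gave −0.63 (adjusted p = 0.0177).

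**Figure D3:**
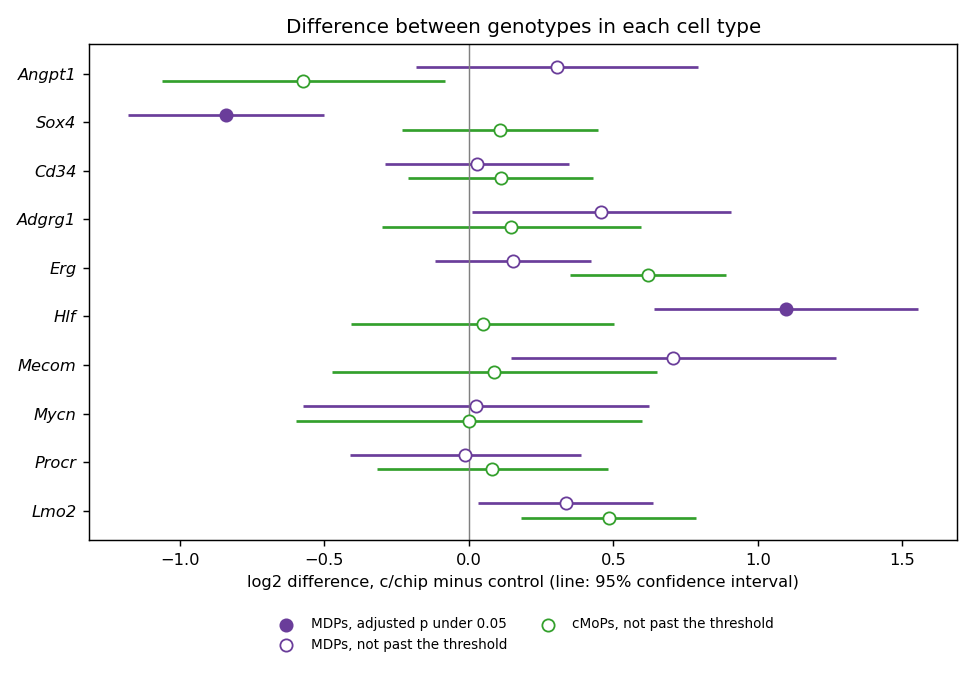
Each point is the log2 difference of c/chip minus control (x axis) for 1 gene (y axis) in MDPs (purple) or cMoPs (green), with 95% confidence intervals as lines and filled points past an adjusted p of 0.05. Sox4 and Hlf in MDPs are filled, on opposite sides of 0, and in cMoPs Erg lies farthest to the right.

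Markers of other lineages moved with the genotype in MDPs. Granulocyte markers were higher for 7 of 10 and none was lower, and their summed level was 71.97 to 81.0 in control and 87.26 to 96.9 in c/chip MDPs. Erythroid and megakaryocyte markers were higher for 5 of 8, with sums of 34.95 to 41.64 and 47.12 to 58.17. Mast cell and basophil markers were higher for 4 of 6, with sums of 28.23 to 32.72 and 34.5 to 43.96. Of 7 lymphoid markers, Dntt and Il7r were lower and none higher (sums 29.15 to 33.84 and 20.62 to 25.46), of 7 dendritic markers Siglech was lower (25.12 to 31.15 and 23.36 to 24.84), and of 7 monocyte markers Ly6c2 was higher and Irf8 lower (59.73 to 61.55 and 58.44 to 62.33). Without the 3 arrays the calls left were Cebpe, Elane, Gstm1 and Ms4a3 of the granulocyte markers, Gp5 of the erythroid and megakaryocyte markers, Hdc of the mast cell and basophil markers, and Ly6c2 of the monocyte markers. Dntt and Il7r stayed lower, Cd79a became higher, and Siglech no longer passed. In c/chip MDPs 3 of the lymphoid and 5 of the dendritic markers lay below the array median on every array, against 0 of the granulocyte, erythroid and megakaryocyte, mast cell and basophil, and monocyte markers. Their part in the differences of Sox4 and Hlf was not tested.

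Because Angpt1, Erg, Cd34 and Procr are also genes of vessel walls and marrow stroma, 8 endothelial and stromal markers were examined. From MDPs to cMoPs Emcn, the endomucin gene, which blood stem cells also express, was called lower in control (−1.04, SE 0.276, adjusted p = 0.0397) and in c/chip mice (−1.24, SE 0.276, adjusted p = 0.0173), and these calls were lost in 10 and 4 of 16 fits without single arrays. Its part in the falls of the members was not tested. None of the 8 passed between genotypes in the main fit. Cxcl12 was higher in c/chip MDPs without the 3 arrays and also with Xist and Y-linked levels as covariates. Kdr, the main VEGF receptor, had means of 2.63 to 2.80 over the groups, Cdh5, VE-cadherin, 3.06 to 3.48, and Lepr, a marker of stromal cells, 1.65 to 1.93, against array medians of 3.43 to 3.62. Pecam1, which blood cells also express, was at 8.14 to 8.91. The summed level was 28.98 to 30.87 in control MDPs, 29.65 to 34.97 in c/chip MDPs, 28.93 to 29.85 in control cMoPs and 30.8 to 32.2 in c/chip cMoPs.

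In cMoPs no member passed between genotypes, where 0.0451% of all genes were lower and 0.0676% higher. By limma's unadjusted p, 3 of the 10 (Erg, Lmo2 and Angpt1) were under 0.05, among 1052 of all genes. Erg was 0.62 higher in c/chip cMoPs (SE 0.128, 1.54-fold, adjusted p = 0.0967) and its 4 c/chip arrays lay above all 4 control arrays. It passed with a trended and robust variance (adjusted p = 0.0497) and with array weights (0.55, adjusted p = 0.0396), and its adjusted p reached 0.316 over the alternatives. Lmo2 was 0.48 higher (SE 0.143, adjusted p = 0.588), also without overlap, and Angpt1 differed by −0.57 (SE 0.231, adjusted p = 0.98). The second Angpt1 probe set, with lower levels, differed by −0.17. Of all genes, 3.87% had no overlap in this comparison, against 2 of the 10 members. Hlf and Sox4, which passed in MDPs, differed by 0.05 (SE 0.216) and 0.11 (SE 0.16) in cMoPs.

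Whether the loss itself changed with genotype was tested as the c/chip difference between cMoPs and MDPs minus the control one. No member passed, beside 0.0451% of all genes with a more negative and 0.0135% with a more positive value. Limma's unadjusted p was under 0.05 for 4 members and for 1890 of all genes. Sox4 gave 0.95 (SE 0.226, 95% interval 0.47 to 1.42, adjusted p = 0.177), a smaller loss in c/chip mice. Hlf gave −1.05 (SE 0.305, interval −1.69 to −0.41, adjusted p = 0.332) and Angpt1 −0.88 (SE 0.327, interval −1.57 to −0.19, adjusted p = 0.475), larger losses. Erg gave 0.47 (SE 0.181, interval 0.08 to 0.85, adjusted p = 0.495), a smaller one. The other probe sets of Angpt1, Sox4 and Mecom, with lower levels, gave −0.17, 0.44 and −0.32, each smaller in size than that of the probe set used. A probe set shared by Cd34 and Gm16897, not used here, gave 0.66, with −0.66 between genotypes in MDPs. Of the 10 values 5 were negative and 5 positive, and the median was 0.03 against −0.04 over all genes. Sox4 passed when c/chip MDP replicate 3 was left out (1.10, adjusted p = 0.0332), and over its alternatives the adjusted p ran up to 0.361. For Cd34 the value was 0.08 (interval −0.37 to 0.53) and for Adgrg1 −0.31 (interval −0.95 to 0.32), so neither interval reached a change of 1 log2 unit. The falls of Hlf and Mecom, called in c/chip mice and not in control mice, were thus not shown to differ between genotypes.

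Several arrays had most of the 10 genes on the same side of their group means. In c/chip MDPs all 10 lay below the mean on replicate 2 (mean deviation −0.20) and 8 lay above it on replicate 1 (0.267). In control cMoPs 1 of the 10 lay above the mean on replicate 2 (mean deviation −0.25). In c/chip MDPs replicate 1 was the highest array for 6 of the 10 genes and the lowest for 0, and replicate 2 was the lowest for 6 and the highest for 0. In control cMoPs replicate 2 was the lowest for 6. Hlf (6.97) and Mecom (5.02) in particular stood high on c/chip MDP replicate 1, whereas Sox4 was highest on replicate 3 (10.40). Within the c/chip MDPs, granulocyte, erythroid and megakaryocyte, and mast cell and basophil markers were highest on replicate 1, lymphoid, dendritic and monocyte markers on replicate 4 and endothelial and stromal markers on replicate 2. The mean level of erythroid and megakaryocyte markers was 7.27 there and 5.89 to 6.63 on the others, and that of mast cell and basophil markers 7.33 there and 5.75 to 6.59 on the others. Their part in the levels of Hlf and Mecom was not tested.

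**Figure D4:**
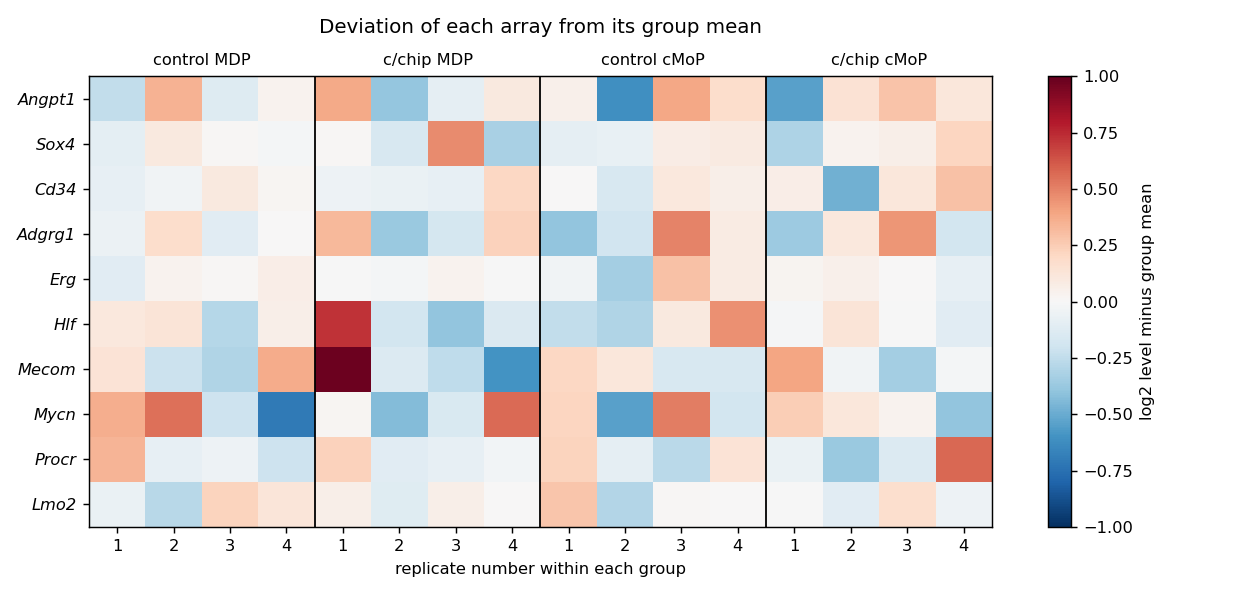
Colour gives the log2 level of each gene (y axis) on each array (x axis, replicate number within the 4 groups) minus its group mean, red above and blue below, with colours saturated at 1 unit. Hlf and Mecom are reddest on c/chip MDP replicate 1, and most genes are blue on control cMoP replicate 2.

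Among themselves, the closest pairs over the 16 arrays were Cd34 with Erg (root mean square distance 0.291 log2 units between levels centred on each gene's mean), Procr with Lmo2 (0.327), Angpt1 with Adgrg1 (0.331) and Hlf with Mecom (0.392). Sox4 was farther from its nearest member, Erg (0.631). Outside the list, the genes nearest to the mean of the 10 were Msi2, the RNA-binding Musashi-2 gene of stem cells, at 0.18, Txnip, a thioredoxin inhibitor, at 0.242, Ccnd2, the cyclin D2 gene, at 0.253, Tal1, a basic helix-loop-helix factor of stem cells, at 0.263, Cxxc5, a CXXC zinc finger gene, at 0.282, and Prkd2, protein kinase D2, at 0.29. Single members had their nearest neighbours in Tspan13, a tetraspanin gene (0.527 from Angpt1 and 0.495 from Adgrg1), Marcks, a protein kinase C substrate (0.326 from Sox4), Acap1 (0.153 from Cd34), Ccnd2 (0.249 from Erg), Mdga1 (0.278 from Hlf and 0.281 from Mecom), the Polycomb gene Phc1 (0.294 from Mycn), Gapvd1 (0.174 from Procr) and A26c3 (0.187 from Lmo2). Marcks had means of 6.78, 5.97, 4.75 and 4.87 in control MDPs, c/chip MDPs, control cMoPs and c/chip cMoPs, the order in which Sox4 also lay. Distances shrink for genes that hardly vary, such as Procr and Lmo2, and so do not compare members with each other.

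A wider set of 70 related genes, 64 of them measured, was described beside the members and was likewise chosen with earlier results of these data known. From MDPs to cMoPs 17 of the 64 fell and 2 rose in control mice, and 14 fell and 1 rose in c/chip mice, with medians of −0.25 and −0.31. Without the 3 c/chip MDP arrays 7 fell and 1 rose in c/chip mice, and the control counts stayed at 17 and 2. Those 7 were F2r, Flt3, Gata2, Gfi1b, Msi2, Sox12 and Tgm2, so that Ikzf2 (adjusted p = 0.116) and Tal1 (adjusted p = 0.119), given next with all arrays, no longer passed. Of 31 other stem and progenitor genes 10 fell and 1 rose in control mice, and 8 fell and 0 rose in c/chip mice. Flt3, a receptor of multipotent and dendritic progenitors, fell in both genotypes (log2 −3.15 in control and −2.38 in c/chip mice, SE 0.236 each). Gfi1b, which encodes a transcriptional repressor that acts in the erythroid and megakaryocyte lineages, fell too (−2.84 and −4.41, SE 0.444 each). The falls were −1.39 and −1.64 for Msi2 (SE 0.144 each) and −1.96 and −2.17 for Ikzf2, the Helios gene (SE 0.327 each). Prom1, which encodes the surface protein CD133, rose by 1.75 in control mice (SE 0.226), against the direction of the 10 members.

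Of 22 transcription factor relatives and partners, 5 fell and 1 rose in control mice and 4 fell in c/chip mice. They include partners of Lmo2. Gata2 fell in both genotypes (−1.74 and −3.83, SE 0.378 each), as did Tal1 (−0.84 and −1.20, SE 0.17 each). Ldb1, an adaptor that binds Lmo2, fell in control mice (−0.69, SE 0.149). Lmo2 itself did not pass. Sox12, the SoxC relative of Sox4, fell in control (−0.80, adjusted p = 0.0176) and in c/chip mice (−1.59, adjusted p = 8.81e-05), and its control call did not hold without control cMoP replicate 1 or 4 or control MDP replicate 2 (adjusted p = 0.0616, 0.0548 and 0.0593). Lmo1, an Lmo2 relative, rose by 0.73 in control mice (SE 0.139). Of 11 measured ligand and receptor partners, F2r, the thrombin receptor, fell in both genotypes (−2.07 and −3.45, SE 0.394 each), Thbd, the thrombomodulin gene of the protein C pathway of Procr, rose by 1.76 in c/chip mice (SE 0.284), and the Angpt1 receptor gene Tek had group means of 2.15 to 2.66, below the array medians.

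Between genotypes in MDPs, the c/chip cells had more of 4 and less of 3 among the 64 related genes. In cMoPs 0 of 64 passed in the fit of all 16 arrays, as for the interaction. Flt3 nevertheless had a mean of 5.08 in c/chip cMoPs against 6.29 in control cMoPs. In c/chip MDPs Gata2 was 5.44-fold higher (log2 2.44, SE 0.378, adjusted p = 0.00277), and Slamf1, the stem cell marker CD150, 2.67-fold higher (log2 1.42, SE 0.287, adjusted p = 0.0183). Pdzk1ip1, a gene of stem cells, was 0.71 higher (SE 0.136) and Lmo4 0.75 higher (SE 0.175). Flt3 was 3.9-fold lower (log2 −1.96, SE 0.236, adjusted p = 2.71e-04), and Hmga2, a chromatin protein of fetal and young stem cells (−1.11, SE 0.244), and Satb1, a chromatin organiser of lymphoid-primed progenitors (−0.61, SE 0.118), were lower too. Without the 3 c/chip MDP arrays, Flt3 still passed (−2.26, adjusted p = 0.00626), while Gata2 (2.49, adjusted p = 0.0843), Slamf1, Pdzk1ip1, Lmo4, Hmga2 and Satb1 did not.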

How the data were processed

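The study measured RNA of sorted MDPs and cMoPs on Affymetrix arrays, from 300 ng of total RNA per the labels' protocols. The deposited values are log2 levels that the authors normalized with RMA, and affy, RMA and limma are named in the submitters' processing notes. The design text and the probe annotation name different array designs, and gene names follow the annotation. A second deposited table held 16 value columns whose names match no label and was not used. Control cMoP titles carry both genotype names, so groups were taken from the source names.

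Of 41345 probe sets, 23521 had 1 symbol, 1820 several and 16004 none. A gene was its single-symbol probe set with the highest mean, which gave 22180 genes. Limma 3.58.1 (R 4.3.3) fitted 4 group means to all 16 arrays, with Benjamini-Hochberg adjustment over all genes in each of 5 comparisons and calls at an adjusted p under 0.05. Comparisons share groups, so their values are given side by side. The number of arrays limits the precision. In simulated data for the control comparison of cMoPs and MDPs over 22180 genes, 50 genes were lowered by each amount. Of those lowered by 0.5 log2 units 10% were recovered, with 74% at 1 and 96% at 2, and 13 of 153 calls were false. Fewer genes changed there than were called in the real comparison (380 lower and 631 higher). Because the adjustment depends on that number, the recovered shares need not hold for the real data. The members and lists were chosen with earlier results of these data known. Named genes were all members, Dnmt1, sort markers, up to 4 called genes a list by size of difference, and the nearest genes by distance. Other genes named in the text were chosen after their values were seen. Alternatives covered probe set choice, low levels, normalization, variance model, samples fitted, replicate block and leaving out each array. Leaving out the 3 c/chip MDP arrays with Xist and Y-linked transcripts, and taking these levels as covariates, were added after seeing the data.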

Additional observations from a re-analysis of the deposited data

Results flagged for a closer look

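Cd34 on c/chip MDP replicate 4 stood apart from its group, at a level of 11.102 against 10.81 to 10.84 on the other 3 arrays. The gap was 0.894 of the group's range, above Dixon's 95% critical value for 4 samples. It was the only such array among 44 groups tested, and chance alone marks about 1 in 20 groups.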

How the results depend on the processing

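Of 1275 alternative values for the 50 member differences, 1252 kept their side of the threshold, 17 lost the call and 6 gained it. The sign changed in 48 values, 0 of them called. The number of members that fell in c/chip mice was 7 in the main fit and 6 to 7 with single arrays left out. With Xist and Y-linked levels as covariates it was 5. Leaving out the 3 c/chip MDP arrays that carried both Xist and Y-linked transcripts left replicate 2 alone in that group, with all 10 members below the group mean. Calls lost in that fit cannot be told apart from the low levels of this array and the lower precision. In control mice 5 to 6 fell. Between genotypes in MDPs, the 1 lower member became 0 with only the MDP groups fitted and with Xist and Y-linked levels as covariates. The 1 higher member became 0 in those fits, without the 3 arrays, and with single arrays left out it was 0 to 1. In cMoPs 1 member, Erg, was higher with trended and robust variance and with array weights, against 0. For the interaction the count with single arrays left out was 0 to 1. The cause was not tested. A replicate block left the member counts at 5 and 7 for the falls and at 1 and 1 between genotypes in MDPs. Same-numbered arrays correlated by −0.045 to 0.214 in their deviations, and no pair of groups had all 4 values above 0.1. Between c/chip MDPs and c/chip cMoPs the same-numbered array was the best match for all 4 replicates (0.063 to 0.105). In no other pair of groups was this so. Control MDPs and control cMoPs of the same number also shared their sex. The main fit did not take the numbers as pairs, and whether they are pairs remains unsettled. Under the block Lmo4, Itga2b and Epor lost their calls between genotypes in MDPs (adjusted p = 0.0557, 0.0574 and 0.0656).

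Over all genes, the count lower in control cMoPs was 380 (247 to 420 with single arrays left out). In c/chip cMoPs against c/chip MDPs 331 were lower and 399 higher (208 to 341 and 229 to 422 with single arrays left out), against 215 lower in the fit of the compared groups, 181 and 191 without the 3 arrays, and 151 and 238 with the covariates. In c/chip MDPs against control 152 were lower and 280 higher (84 to 172 and 130 to 333), against 18 and 46 in the fit of MDPs alone, 61 and 104 without the 3 arrays, 31 and 53 with the covariates, 89 and 175 with array weights, and 106 and 436 with arrays centred on their medians. In c/chip cMoPs against control 10 were lower (5 to 12) and 15 higher (10 to 16), and array weights gave 22 and 38. Interaction calls were 10 and 3, with 4 to 23 and 1 to 10 when single arrays were left out.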
